A study of Drosophila melanogaster with 2 samples.

Results

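Rab small GTPase genes were taken as the protein-coding genes whose annotated symbol is Rab or RabX followed by a number, with an optional letter suffix. There were 33 of them among 13968 protein-coding genes on the main chromosomes of Drosophila melanogaster. A further 3 symbols that begin in the same way, Rab3-GEF, Rab3-GAP and Rab3GAP1, belong to regulators of Rab3 and were placed in a list of regulators. Binding was read from chromatin immunoprecipitation with sequencing (ChIP-seq) of the transcription factor dimm fused to eGFP, a green fluorescent protein. The material was whole embryos of strain dimm-GFP, 0 to 24 hours old, and the precipitating antibody was one against GFP, although an antibody field of the labels reads dimm. Chromatin was sonicated, with a size range of 200 to 800 in the labels. All samples carried the insertion, in 1 group of 2 biological replicates, with no second condition, and the possible control experiment that the labels name was not used here. What drives the fusion gene, and in which cells, is not given in the sources used here. Peaks carry no read totals, which leaves library depth unknown, and a tissue cannot be checked by marker levels. Whole embryos mix all tissues, so binding in few cells and weak binding in many cannot be told apart.

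Rab proteins are small GTPases that act as switches on membranes. An exchange factor loads them with GTP, the active form recruits effectors such as motors, tethers and coiled-coil proteins, and an activating protein returns them to the inactive, GDP-bound form. Each organelle of the secretory and endocytic routes carries its own set. Dimm is a basic helix-loop-helix factor of peptidergic neuroendocrine cells, which store peptides in dense-core vesicles, and Rab3, Rab26 and Rab27 are known from regulated secretion. The comparison made here asks which Rab genes carry a dimm-eGFP region, and whether the replicates' own lists hold the same ones.

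A gene was counted as bound when the summit of a listed region fell between its annotated ends or in the 1 kb before its start. The conservative list of both replicates held 1739 merged regions, replicate 1's own list 1176 and replicate 2's own list 1114. Every listed region had a −log10 IDR of at least 2, where the IDR (irreproducible discovery rate) is low for peaks that rank alike in repeated sets. The signal is the authors' own value for each peak. Its normalization is not given in the sources used here. It was used to rank peaks within a list and to set the replicates side by side. Means, SDs, ratios and other comparisons between replicates may therefore include a difference in scale.

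Few Rab genes were bound, and with 33 genes their share could not be set apart from that of all protein-coding genes. In the conservative list 3 of 33 were bound, Rab11, Rab23 and Rab3 (9.09%, 95% Wilson interval 3.14 to 23.6%), against 11.2% of all protein-coding genes. In replicate 1's own list Rab11 alone was bound, 1 of 33 (3.03%, against 8.21%). In replicate 2's own list 3 were bound, Rab11, Rab14 and Rab23 (9.09%, against 7.8%). Rab11 was the 1 member bound in all 3 lists, against 6.14% of protein-coding genes. A second list of both replicates, not marked conservative, held 4, namely Rab3, Rab11, Rab14 and Rab23 (12.1%, against 11.6%). The remaining 29 Rab genes had no region in any thresholded list, a share that was not counted over all protein-coding genes. The intervals cover counting error only, no test was made over the list, and with 33 genes the interval of the Rab share contains that of all protein-coding genes in each list.

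**Figure D1:**
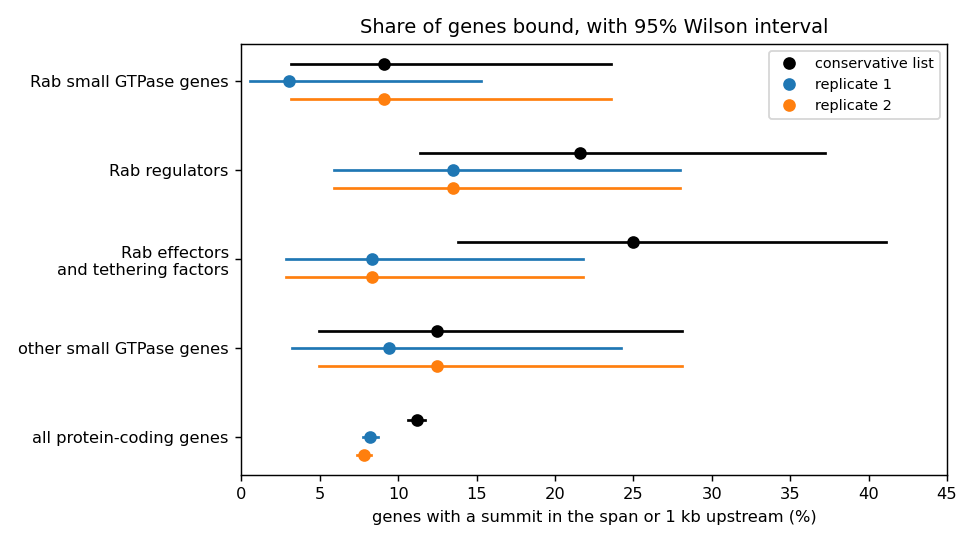
Percent of genes with a summit in the span or 1 kb upstream (x axis) for the Rab genes, 3 related lists and all protein-coding genes (y axis), in the conservative list and in each replicate's own list; points are shares and lines are 95% Wilson intervals. The points of the Rab genes lie at 9.09%, 3.03% and 9.09%, and in each of the 3 lists their interval spans the share of all protein-coding genes.

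Rab11, which directs traffic through the recycling endosome, had the strongest region of the family and the only one listed in both replicates. Rab11 (FBgn0015790) lies on chromosome 3R from 21111408 to 21116146 (+ strand, build dm6), and the region from 21113055 to 21113358 is in an intron, with its summit 1799 bp downstream of the transcription start site (TSS). Its signal was 117 in the conservative list, rank 594 of 1739, where the median was 91.6. At this position replicate 1 had a signal of 49.7 and replicate 2 had 65.7 (57.7 ± 11.3, SD, n = 2). Both were in the replicates' own lists, and their summits lay 8 bp and 21 bp from that of the conservative list. The nearest TSS of any gene was that of Rab11, and no other gene had the summit in its span or upstream kilobase.

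Rab23, a regulator of planar cell polarity in the fly, also had an intronic region, with a −log10 IDR in the replicates on either side of the threshold of 2. Rab23 (FBgn0037364) lies on 3R from 5680054 to 5685434 (− strand), and its region from 5683006 to 5683309 has its summit 2276 bp downstream of the TSS. The signal was 68.1 in the conservative list, rank 1321. Replicate 1 had 34.5 and replicate 2 had 37.1 (35.8 ± 1.81, SD, n = 2). The −log10 IDR was 2.06 in replicate 2 and 1.56 in replicate 1. The region was therefore listed in replicate 2 and not in replicate 1, although the signals were alike.

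Rab14, a Rab of endosomes and phagosomes, was the member on which the replicates differed most among those with a listed region. Rab14 (FBgn0015791) lies on 2L from 14355145 to 14358764 (+ strand), and the region from 14355568 to 14355871 is in an intron, with its summit 575 bp downstream of the nearest TSS of Rab14. The summit also lies in the upstream kilobase of l(2)34Fd and within lncRNA:CR44851. Replicate 2 had a signal of 55.8 there, rank 708 of its candidates, with a −log10 IDR of 3.0. Replicate 1 had 10.4, rank 57766, with a −log10 IDR of 0.02. The ratio of replicate 2 to replicate 1 was 5.35, against 1.32 at the region of Rab11 and 1.07 at that of Rab23. With both replicates together the signal was 59.5. The −log10 IDR there was 2.29 in the combined list not marked conservative. It was 0.14 among the candidates behind the conservative list, which did not hold the region. Replicate 1's strongest candidate in Rab14, 26.6, was 79 bp from another TSS of the gene, where replicate 2 had 9.79. What sets the replicates apart at this gene was not tested.

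The bases around these 3 summits are shown because they are the intronic regions of the family, and none of them holds the site that basic helix-loop-helix factors bind. Each line gives the summit, at base 51, with 50 bp on either side, 5′ to 3′ on the strand of the gene, from the Release 6 genome (dm6). Capitals mark matches, on either strand, to any of 6 motifs searched, and windows in lower case throughout have none. The windows lie at chr3R:21113157-21113257 (+ strand) for Rab11, chr3R:5683108-5683208 (− strand) for Rab23 and chr2L:14355670-14355770 (+ strand) for Rab14.
Rab11: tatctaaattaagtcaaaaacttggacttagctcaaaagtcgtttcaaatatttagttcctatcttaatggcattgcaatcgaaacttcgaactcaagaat
Rab23: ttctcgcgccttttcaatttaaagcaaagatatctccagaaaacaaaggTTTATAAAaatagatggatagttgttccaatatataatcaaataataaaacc
Rab14: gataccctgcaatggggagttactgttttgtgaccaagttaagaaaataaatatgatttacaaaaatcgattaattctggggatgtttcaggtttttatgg

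The first motif was CANNTG, the general E-box that such factors bind, and the next was its class with CATATG. The core of the DNA replication-related element was searched as TATCGAT, and the repeat bound by GAGA factor as GAGAG. The core of a promoter element named Motif 1 was searched as GGTCACAC, and the TATA box as TATAAA. The capitals in Rab23 are 2 overlapping matches to TATAAA, 1 on each strand. Among all 1739 conservative regions, the same window held CANNTG in 33.2%, CATATG in 3.91%, TATCGAT in 1.78%, GAGAG in 8.8%, GGTCACAC in 0.345% and TATAAA in 22.3%. CATATG is itself a CANNTG, so those shares overlap. The window of Rab3 held 0 matches to any of them. The GC content was 30.7% for Rab11, 27.7% for Rab23 and 33.7% for Rab14, around the median of 31.7% over all conservative regions. With 4 windows, the absence of E-boxes describes these letters alone.

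Rab3, the Rab of synaptic and dense-core vesicles, was the 1 member with a summit within 500 bp of its own TSS in the conservative list (3.03% of Rab genes, against 6.92% of protein-coding genes). Rab3 (FBgn0005586) lies on 2R from 10721335 to 10729203 (− strand), and the region from 10729094 to 10729397 has its summit 43 bp upstream of the TSS. Its signal was 55.9, rank 1657 of 1739. Replicate 1 had 28.5 and replicate 2 had 27.1 (27.8 ± 0.99, SD, n = 2), the closest pair of values among the 4 members with a listed region. The −log10 IDR was 2.02 for both replicates together, 0.82 in replicate 1 and 0.54 in replicate 2, so neither replicate's own list held the region. A stronger region lay 2015 bp upstream of the gene, 117 bp from the TSS of CG7220, with a signal of 99.7 (replicate 1, 55.7; replicate 2, 47), in both replicates' own lists. The weak region at Rab3 thus had a stronger neighbour outside the counted span.

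**Figure D2:**
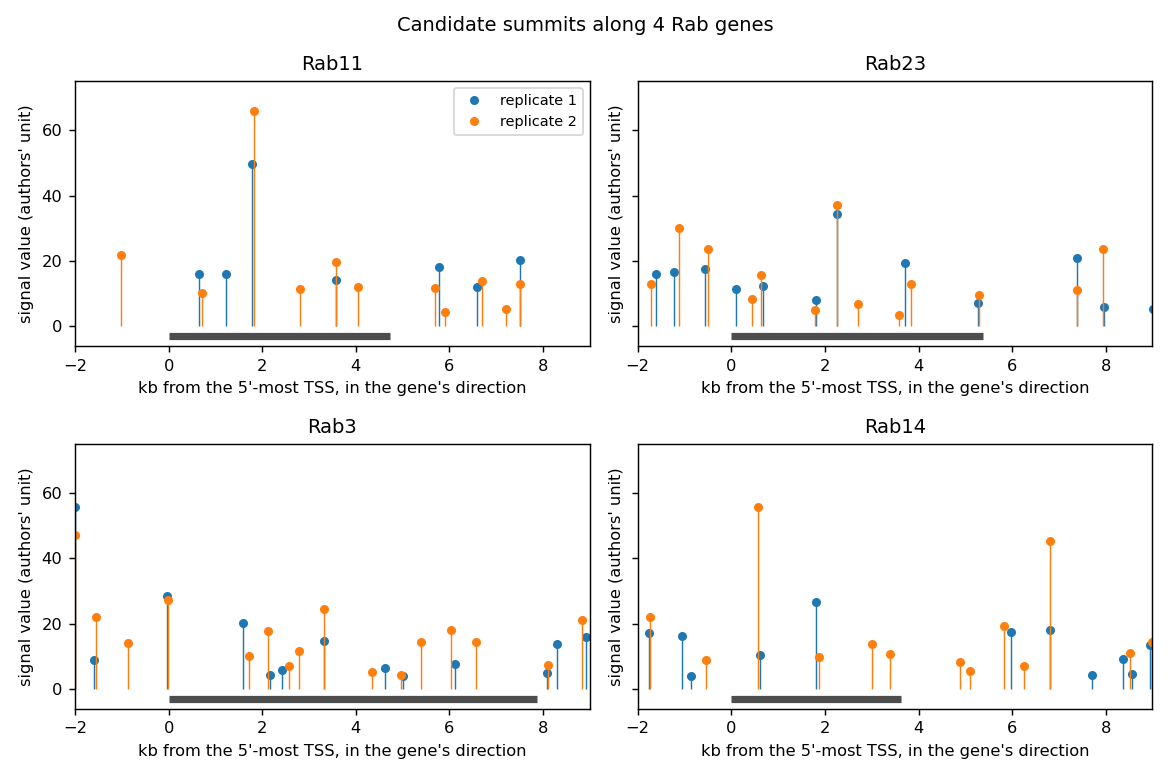
Signal of every candidate summit (y axis, authors' unit) against distance from the 5′-most TSS in the direction of the gene (x axis, kb) for Rab11, Rab23, Rab3 and Rab14; blue is replicate 1, orange is replicate 2, and the grey bar is the annotated span. Both replicates peak together in Rab11 (49.7 and 65.7) and Rab23 (34.5 and 37.1), near the TSS of Rab3 both are low (28.5 and 27.1), and in Rab14 the tall candidate is replicate 2's alone (55.8 against 10.4).

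Members without a listed region were placed by their strongest candidate in the longer, ranked list that matches the conservative list, which holds 139701 candidates on the main chromosomes. Of the 33 Rab genes 28 had a candidate there, with a median signal of 31.2 and a range of 14.7 to 117, against a median of 33.3 over the 11823 protein-coding genes that had one. Counting genes with none as lowest, the median Rab gene stood at the 46.3rd percentile of all protein-coding genes. There were 1.02 candidates per kb in the Rab genes and 1.03 per kb in all protein-coding genes. In replicate 1's ranked list the densities were 0.648 and 0.787 per kb, and in replicate 2's 0.792 and 0.863 per kb. The Rab genes had a median span of 2.44 kb, against 2.16 kb for all protein-coding genes and 5.4 kb for those bound in the conservative list. Of the 28 strongest candidates, 7 lay within 500 bp of a TSS of the gene, 11 further upstream, 6 in introns and 4 in coding exons. Of the 24 Rab genes with a candidate in both replicates, 11 had the higher signal in replicate 1 and 13 in replicate 2. Neither the places nor this split were counted over all protein-coding genes, so they describe the Rab genes alone. Where values of each replicate are given next, they are that replicate's strongest candidate in the gene, which need not lie at the same position.

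Of the Rabs of the endoplasmic reticulum and Golgi 0 of 7 were bound in the conservative list, where 11.2% of all protein-coding genes were. Their strongest candidates ran from 27.2 to 40.9 in the 6 genes that had one, with a median of 34.3 against 33.3 over all protein-coding genes with a candidate. Rab6, of traffic at the Golgi, had 40.9 (replicate 1, 17.3; replicate 2, 18.3) in a coding exon. Rab1, which acts from the endoplasmic reticulum to the Golgi, had 37.3 in an intron, with 18.6 in replicate 2 and no candidate in replicate 1. Rab2, also of that route, had 32.3, 789 bp upstream of its TSS (15 and 25.3). Rab18, known from lipid droplets and the endoplasmic reticulum, had 35.6, 59 bp upstream of its TSS, where the replicates stood at 17 and 18.6. Rab19 had 33 (19 and 12.3) and Rab39 had 27.2, with 18.2 in replicate 1, none in replicate 2 and 10.9 in the ranked list behind the other combined list. Rab30 had a candidate in replicate 1 alone, at 22.1.

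Among the endosomal Rabs, 1 of 8 was bound in the conservative list, Rab11, a count that with so few genes cannot be set apart from the 11.2% of all protein-coding genes. Rab5, which drives fusion of early endosomes, and Rab4, of fast recycling, had no candidate in the ranked lists used here. Rab7, of late endosomes and lysosomes, had 15.9 for both replicates together, none in replicate 1 and 17.7 in replicate 2. In the ranked list behind the other combined list Rab7 had 31.2. Rab21, an early endosome Rab, had 29.3, 352 bp upstream of its TSS (9.97 and 19.5). Rab9, of traffic from late endosomes to the Golgi, had 36.8 (22.1 and 16.4), and Rab35, of endocytic recycling, had 18.8 (8.82 and 11.8).

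Of the 5 Rabs of exocytosis, Rab3 was the 1 bound in the conservative list (against 11.2% of all protein-coding genes), and Rab26 and Rab27 had candidates under the threshold. Rab26 has the longest span of the family, 16254 bp, and held 22 candidates, of which the strongest reached 33.2 (18.6 and 24.4). Rab27, of secretory granules and synaptic vesicles, had 31.6 in an intron (8 and 21.1). Rab10, of basolateral and basement membrane secretion, had 19.4 (8.11 and 11.2). Rab8, of exocytosis to the plasma membrane, had no candidate.

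The last Rabs with a named role were Rab32, Rab23 and Rab40. Rab32, of lysosome-related organelles such as eye pigment granules, had the strongest candidate among members outside every thresholded list, 49.3, with a −log10 IDR of 1.47, 709 bp upstream of a TSS (replicate 1, 30.2; replicate 2, 23). For both replicates together, 49.3 and 1.47 lay under the values of Rab3, 55.9 and 2.02. The strongest candidates of the single replicates lay elsewhere in Rab32. They were 762 bp downstream of a TSS in replicate 1 and 2273 bp upstream of one in replicate 2. Their −log10 IDR was 0.16 and 0.06. Rab40 had no candidate.

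The 10 little-studied or fly-specific Rabs had 0 bound in the conservative list, where 11.2% of all protein-coding genes were. Their strongest candidates ran from 14.7 to 31.9 with a median of 21.9. That was the lowest median among the role groups, taken over genes with a candidate. All 10 of these genes had one, while each other group had genes with none, which its median leaves out. Most of the 10 are also shorter than the family's median span of 2.44 kb, and no adjustment for span was made. RabX5 had 31.9 (20 and 19), RabX1 had 30.9, 70 bp upstream of its TSS (25.4 and 16.2), RabX4 had 18.8 (11.8 and 11.6) and RabX6 had 17 (11.2 and 16.1). The remaining 6 lie on X between 10417429 and 10952486, within 535 kb, and are short genes of 76.1 to 99% pairwise identity over their spans. RabX2 had 29.5 (17.1 and 12.1) and Rab9Fb had 24 (8.2 and 18.3). Rab9Db had 23.1, with 14.8 in replicate 1 and none in replicate 2, Rab9E had 20.7 (10.7 and 6.84), Rab9D had 17.8 (13.1 and 12.5) and Rab9Fa had 14.7 (4.68 and 3.98). For 5 of these 6 the strongest candidate in the list of both replicates lay upstream of the gene. Their spans of 791 to 897 bp are shorter than the 1 kb searched upstream, and no share over all genes was taken. In each replicate alone it lay upstream for Rab9D and Rab9Fa, and in a coding exon for Rab9E. Rab9Db and Rab9Fa share 99% of their bases and Rab9D and Rab9E share 98.3%. How reads that match more than 1 copy were handled is not given in the sources used here, so values within these copies are uncertain, and the part of this in the low values was not tested.

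**Figure D3:**
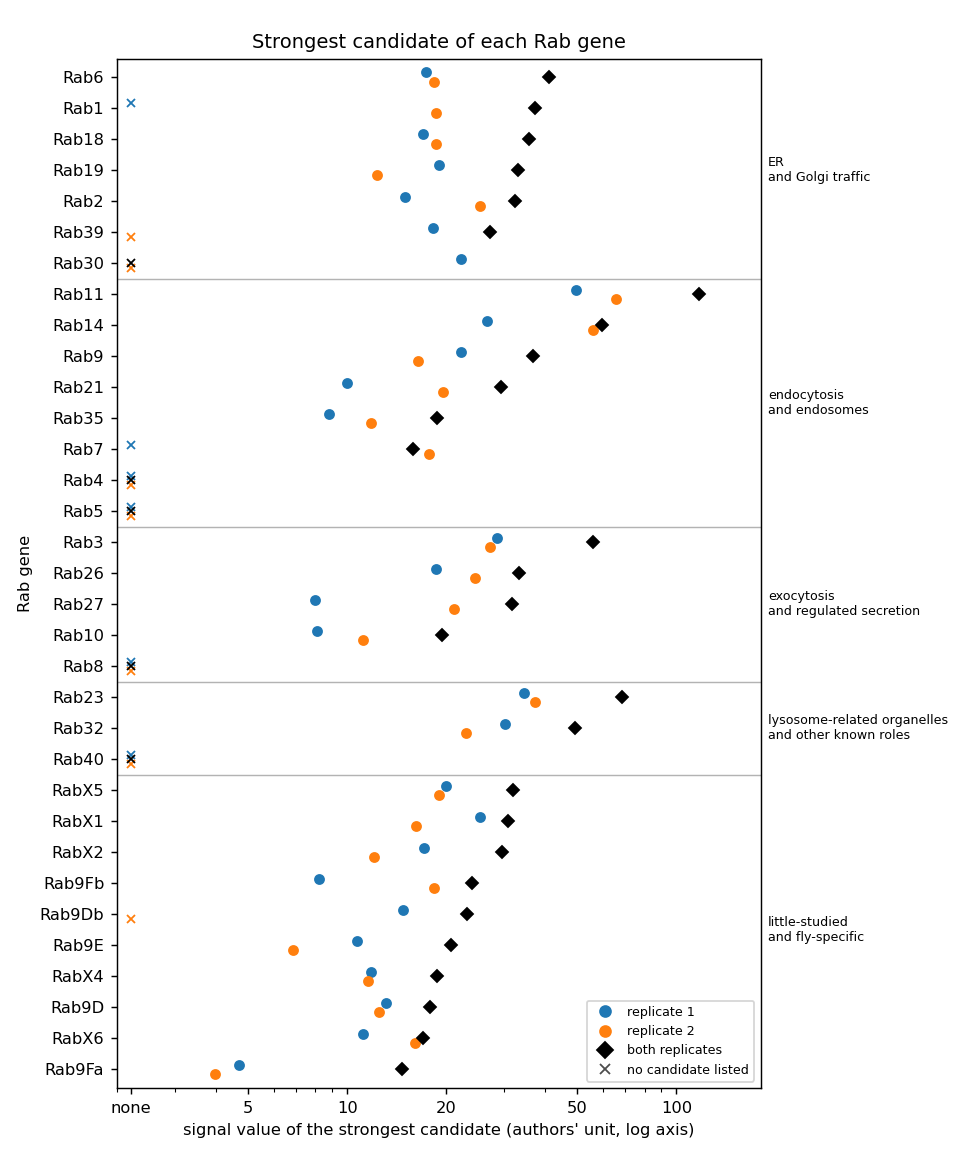
Signal of the strongest candidate in the span or 1 kb upstream (x axis, authors' unit, log axis) for each of the 33 Rab genes (y axis), grouped by role; blue and orange circles are replicates 1 and 2, black diamonds the list of both replicates, and crosses at the left mark genes with no candidate listed. Rab11 at 117 stands to the right of all others, followed by Rab23 at 68.1, Rab14 at 59.5 and Rab3 at 55.9.

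Rab4, Rab5, Rab8 and Rab40 had no candidate in any of the 4 ranked lists, 4 of 33 (12.1%, 95% Wilson interval 4.82 to 27.3%), against 7.82% of all protein-coding genes. Each lay in a longer stretch with no candidate summit in any of the 4 lists. For Rab5 the stretch ran over 15 kb on 2L from 2352143 to 2367136, and Rab5 was the only protein-coding gene wholly inside it. For Rab8 it ran over 15.2 kb on 3L from 19860085 to 19875305, again with no other protein-coding gene wholly inside. For Rab40 it ran over 15 kb on X from 12454955 to 12469918 and also took in CG15731. For Rab4 it ran over 16.8 kb on 2R from 17571585 to 17588431 and took in 5 other protein-coding genes, among them Dcr-2. Such stretches were not rare, with 306 at least as long on 2L, 2R, 3L, 3R and X. Absence from these lists is no measure of zero binding, and what keeps candidates out of these stretches was not tested.

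**Figure D4:**
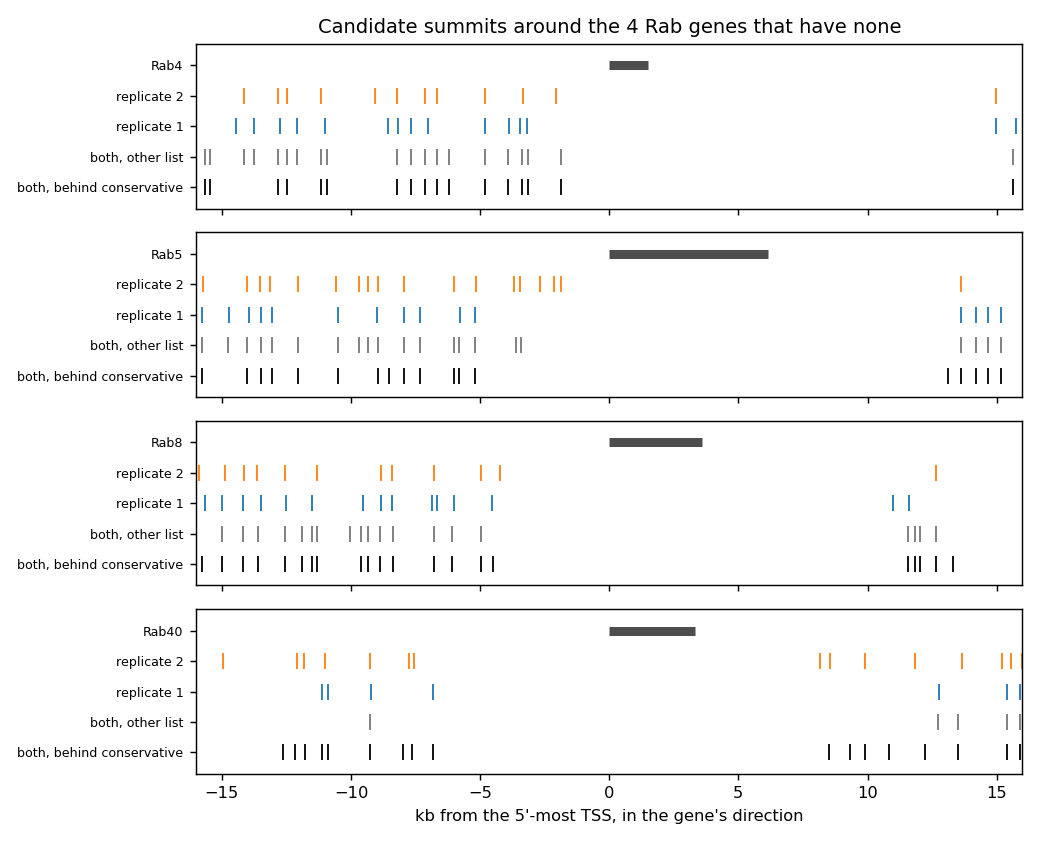
Positions of candidate summits in the 4 ranked lists (ticks, 1 row per list) against distance from the 5′-most TSS in the direction of the gene (x axis, kb) around Rab4, Rab5, Rab8 and Rab40; the grey bar is the annotated span. The ticks stop on both sides of each gene and leave a stretch of 15 to 16.8 kb that is empty in all 4 lists, and the empty stretch of a single list can be longer.

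Regions close to a Rab gene but outside the counted span mostly lay close to the TSS of a neighbour. Within 5 kb of a Rab gene there were 7 such regions in the conservative list, at 7 genes. No such count was made around all protein-coding genes, so neither the number nor the positions can be called particular to Rab genes. RabX5 had one 162 bp beyond its 3′ end (signal 152; replicates 84.4 and 66.4), and that summit was 85 bp from the start of the ribosomal protein gene RpL23A. Rab32 had one 353 bp beyond its end (168; 77.1 and 85.6), 250 bp from the TSS of Rme-8, which encodes a protein of endosomal sorting. Rab4 had one 4831 bp upstream (194; 99 and 99.4), where the nearest TSS is that of POSH. The others were near Rab3 (given above), Rab6 (89, 201 bp from the TSS of ThrRS) and Rab9 (104, 795 bp from that of CG10237). These 6 were in both replicates' own lists. At Rab9D a region 1445 bp upstream had a signal of 72, and there the nearest TSS was that of Rab9D itself. It was listed in replicate 2 (44.3) and not in replicate 1 (26.8). Counted with 2 kb upstream, Rab9D joins the bound genes, and the count is 4 of 33, against 12.4% of all protein-coding genes.

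The other genes of the Rab cycle had more bound members in the conservative list than the family itself. No adjustment was made for gene span, and protein-coding genes bound in that list were longer (median 5.4 kb) than all protein-coding genes (2.16 kb). Of 37 regulators 8 were bound (21.6%, 95% Wilson interval 11.4 to 37.2%, against 11.2% of protein-coding genes), and 5 of them in all 3 lists (13.5%, against 6.14%). These 5 were TBC1d7, Mon1, spri, Evi5 and wkd. TBC1d7, of the TBC domain family, had a promoter region of 213 (replicate 1, 109; replicate 2, 105), shared with Myo95E. Mon1, a subunit of the Rab7 exchange factor, had a promoter region of 197 (111 and 82.8), shared with mRpS2. The gene spri, for a Rab5 exchange factor, had 160 (75.8 and 85.6), 418 bp from a TSS. Evi5, a Rab11 activating protein in the fly, had 3 intronic regions of 139, 92.9 and 76, each in the own list of 1 replicate but not of the other. The gene wkd, for a Rab35 activating protein, had an intronic region of 108 (48.2 and 54.5), 507 bp from a TSS. The other 3, Rab3GAP1, TBC1D23 and sky, were bound in the conservative list and in neither replicate's own list.

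Of 36 effectors and tethering factors 9 were bound in the conservative list (25%, 13.8 to 41.1%, against 11.2%), but only 3 in each replicate's own list (8.33%, against 8.21% in replicate 1 and 7.8% in replicate 2) and 2 in all 3 lists (5.56%, against 6.14%). Rbsn-5, a Rab5 effector of early endosomes, had a promoter region of 125 (63.5 and 65.3) whose nearest TSS is that of PAPLA1. Vps33B, a protein of vesicle tethering, had one of 171 (75.9 and 92.9), shared with Fur1. Of 32 other small GTPase genes 4 were bound (12.5%, 4.97 to 28.1%), against 11.2% of protein-coding genes, and 3 in all 3 lists (9.38%, against 6.14%). Among them were the Golgi Arf-like gene Arl1 (319; 176 and 143), shared with brm, and Miro (90.6; 48.6 and 43.3), for a GTPase of mitochondrial transport, shared with spas. Of the regions named in these lists, those at promoters shared with another gene cannot be assigned to either gene from a summit alone. No difference between these lists and the Rab genes was tested, and the intervals of all 3 overlap that of the Rab genes.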

How the data were processed

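ChIP-seq peaks of dimm-eGFP from 2 biological replicates of whole embryos were used, in 8 peak lists on build dm6, per the labels. The signal of each peak and, in the ranked lists, the −log10 of the global IDR were deposited by the authors. Per the notes deposited with the samples, each list was made from the alignment of 1 replicate or of both, with 1 further file. Which aligner and which peak caller made them is not stated there. The signal's normalization is unknown, so ratios between replicates may include a difference in scale.

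Regions on 2L, 2R, 3L, 3R, 4, X and Y that overlapped by at least 1 bp were merged and kept the strongest summit. The annotation was that of Ensembl (release 115, BDGP6.54), with bases from Release 6, whose coordinates are those of dm6 (99.8% of 30618 annotated start codons read ATG). Coordinates are 1-based. Of 111 symbols in the 3 related lists, 7 were matched by a synonym, 2 could not be matched to a gene, and synonyms for the same gene counted as 1. Identity was taken from a global alignment (edlib 1.3.9.post1). Intervals are 95% Wilson intervals (scipy 1.17.1).

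There is no condition to compare, so no test was made. Counts are set beside those over all protein-coding genes. Every Rab gene is named, and of the related lists the genes bound in all 3 lists, apart from 1 that is not reported here. Evi5 counts because each list holds at least 1 of its regions. Other genes were named for sharing or neighbouring a summit, or to complete a count, and some of these were chosen after their values were seen. The members and lists were chosen with earlier results of these data known. Assignment of summits was tested on simulated data. Alternatives were other lists, other reaches, other member rules and the stronger 50% of regions.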

Additional observations from a re-analysis of the deposited data

How the results depend on the processing

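Of 51 alternative values 30 stayed close to the main value and 21 moved. For counts and shares, close meant within a factor of 1.5. By that rule 2 or 4 Rab genes against 3, and 7.8% of protein-coding genes against 11.2%, counted as close. The median percentile was held to a narrower limit, under which 48 against the main value of 46.3 counted as moved. The count of 3 bound Rab genes was 4 in the list not marked conservative, with 2 kb upstream, or with every symbol that begins with Rab and a digit. It was 2 in the gene span alone and 1 in the stronger 50% of regions. Without a replicate it ranged from 1 to 3. The same stronger regions gave 6.4% of protein-coding genes bound, 5 regulators, 4 effectors and tethering factors, 2 other small GTPase genes and 0 Rab promoters. The gene span alone gave 5.78% of protein-coding genes (without a replicate 7.8 to 8.21%), 4 regulators, 2 effectors and tethering factors, 1 other small GTPase gene and a median percentile of 30.9. With 2 kb upstream that percentile was 48, and 12.4% of protein-coding genes were bound. Without a replicate, regulators stood at 5 and 5, effectors and tethering factors at 3 and 3, other small GTPase genes at 3 to 4, Rab promoters at 0 and 0, and the median percentile at 40.1 to 41.7. Rab11 alone was bound in all 3 lists under each of the 3 alternatives tried for that count. The cause of these moves was not tested. Some alternatives counted fewer regions or bases than the main setting, and some counted more. The depth of the libraries is unknown, so no limit of detection can be given. No paired analysis was possible because the series has 1 group.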
